A study of Homo sapiens with 16 samples.

Results

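The arrays compared here are those of induced U937 cells at 72 h and at 48 h after induction, 2 arrays at each time, 4 of the 16 arrays of the series. They were chosen by their sample labels, and every probe set apart from the 67 control probe sets was eligible. U937 is a human monocytic cell line, and these cells carry an AML1-ETO construct whose expression a tetracycline promoter governs. AML1-ETO (RUNX1-RUNX1T1) is the leukaemia fusion of the DNA-binding part of RUNX1 with the corepressor-binding protein ETO. The 4 groups used were induced cells at 72 h, induced cells at 48 h, control cells at 72 h and control cells at 48 h, each with 2 arrays; controls are the same construct-bearing line in the class labelled Control. The labels name neither the agent given to each class nor a clone, and they leave unsaid whether the 2 replicates of a group were grown separately. The spread behind each p-value is therefore that of these arrays and may be technical. Induced cells at 12 and 24 h and control cells at 0 and 24 h contributed to the estimate of spread and are shown for context.

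The comparison asks what is added between 48 and 72 h, once the cells had been induced for 48 h. The 72 h minus 48 h difference of the controls is set beside it as the same interval in the class labelled Control. It does not separate time in culture from other differences between those arrays. As background, dividing cells copy DNA in S phase with a shared machinery: the MCM helicase opens the origins, DNA polymerases with the PCNA clamp copy the strands, and FEN1 and LIG1 finish the lagging strand. Aurora and polo kinases, kinesin motors and the spindle checkpoint then carry the cell through mitosis. Genes of S phase are controlled largely by E2F factors, and genes of mitosis by the DREAM complex and by MYBL2 and FOXM1 acting at CHR elements.

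Intensities are on the linear scale that was deposited, scaled so that every array has the same mean, 1371. Values at or under 136, the 40th percentile of all values, were set to that floor before taking log2, and a fold change against a floored array is given as "at least". Log2 changes are differences of mean log2 values after the floor, and folds are the matching ratios of geometric means. The 4 arrays had medians of 328 to 332, with 22.9% to 24.6% of values below 0. Over the 7824 probe sets tested, log2 intensities correlated at 0.93 within 72 h and 0.93 within 48 h, and at 0.90 to 0.93 across the times. RUNX1T1, the source of the ETO part of the fusion, has 4 probe sets, of which 3 stayed at or under 352 on all 16 arrays and were not tested. The other read 10603 and 8355 at 72 h, against 8649.6 and 3974 at 48 h, and -399 to 91.4 in the 8 control arrays. Its 2 times overlapped (log2 0.68 ± 0.80 SE, adjusted p = 0.857), so both times are induced and their difference did not pass. Of 11 monocytic markers on the array, 9 were tested and 3 were lower at 72 h (CTSG, PRTN3 and AZU1). CD4 averaged 9181 at 72 h, against 4133 at 48 h (log2 1.27, adjusted p = 0.0501), and CD68 (log2 2.66) did not pass either. CD14, ITGAM and CSF1R averaged under the floor at both times. The summed floored intensity of the 11 was 22313 and 21084 at 72 h, against 23726 and 22928 at 48 h. The array holds 7 lymphoid, 7 erythroid and megakaryocyte and 9 epithelial and fibroblast markers. Of each of these classes 3 passed the filter and were tested, and limma called none of the 3. The sums over all markers on the array were 1935 and 1976 at 72 h against 2754 and 1829 at 48 h for the lymphoid markers, 3450.0 and 4181 against 3503 and 3122 for the erythroid ones, and 9179 and 8053 against 7053 and 5930.3 for the epithelial ones. The part of other cells in the results was not tested, and in whole cultures fewer cells of a type and less RNA per cell cannot be told apart.

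Between 48 and 72 h of induction, 254 probe sets changed: 53 were higher at 72 h and 201 were lower (limma, 1 mean for each of the 8 groups of all 16 arrays, Benjamini-Hochberg adjusted p under 0.05). The same interval in control cells gave 3 calls, 2 higher and 1 lower, with 496 probe sets at an unadjusted p under 0.05 against 1042 in induced cells. Among the called probe sets, the rises had a median log2 change of 1.72 and the falls one of -1.23, sizes that the calling itself selects. Their medians in control cells were 0 and -0.03, beside -0.02 for all tested probe sets, and the floor holds some of these control values at no change. All 254 had both arrays of one time above both of the other, which with 2 arrays a group follows largely from the calling. Of all tested genes, 20.9% had both arrays at 72 h above both at 48 h and 22.2% had both under. Counted once per gene, by the probe set of highest mean level, 33 of 5606 genes were higher at 72 h (0.589%) and 160 were lower (2.85%). In control cells the shares were 1 gene higher (0.0178%) and 0 lower (0%). At an unadjusted p under 0.05, 5.01% of genes were higher and 8.85% lower at 72 h in induced cells, and 3.09% and 3.28% in control cells. The count of 254 was 104 without replicate 2 of induced cells at 48 h and 132 without replicate 2 at 72 h.

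**Figure D1:**
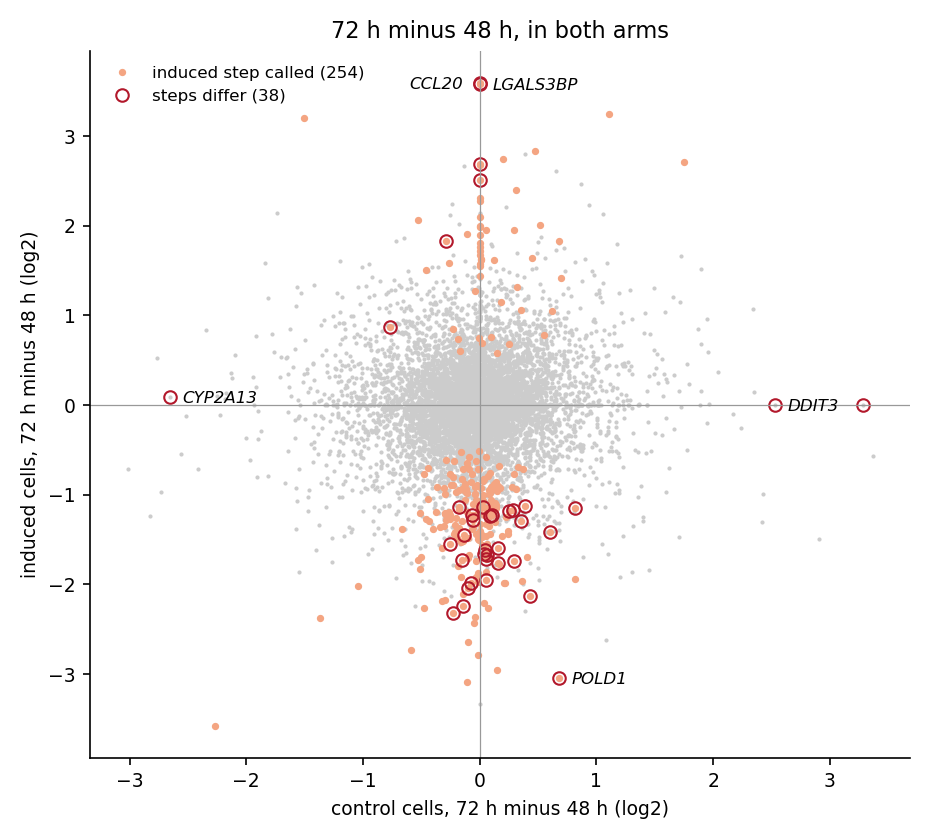
Change between 48 and 72 h in induced cells (vertical axis, log2, 72 h minus 48 h) against the same change in control cells (horizontal axis, log2) for 7824 probe sets. Orange points are the 254 called in induced cells and red rings the 38 whose change differed between induced and control cells. Orange points were chosen by their vertical value, so most lie well away from 0 on that axis. Most lie near 0 on the horizontal one, where the median of all probe sets was -0.02. Both rings beside the DDIT3 label are DDIT3 probe sets.

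Genes of DNA replication and of mitosis made up 59 of the 160 genes called lower. Of 54 tested members of the DNA replication and S phase list, 29 were lower at 72 h and 0 were higher, with 25 not passing, and the median of the list was log2 -1.05, where the median of all tested genes was 0. In 46 of the 54, both arrays at 72 h lay under both at 48 h, and in 0 did both lie above (22.2% under and 20.9% above among all 5606 genes). In controls the list had a median of -0.07 and no call by limma, with 2 members higher and 1 lower at an unadjusted p under 0.05. Without replicate 2 at 72 h the count of 29 was 17, and without replicate 2 at 48 h it was 18.

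POLD1, the catalytic subunit of DNA polymerase delta, gave the smallest adjusted p of the whole comparison. Its intensity was -265 and -657 at 72 h, against 1012 and 1225 at 48 h, and 4810.3 and 5024 at 72 h, against 3339 and 2828 at 48 h in control cells. Both arrays at 72 h were below 0 and all 8 control arrays lay above both at 48 h, so that the fall was at least 8.21-fold (log2 -3.04 ± 0.19 SE, adjusted p = 4.07e-06). Through the time course the induced arrays read 4236 and 4538 at 12 h, 3779.8 and 3039 at 24 h, 1012 and 1225 at 48 h and -265 and -657 at 72 h, so the level had left the control range by 48 h and was below the floor by 72 h. POLD2, the second subunit of the same polymerase, had 635 and 424 at 72 h, against 1099 and 2583 at 48 h (log2 -1.70 ± 0.31 SE, adjusted p = 0.00787). Another subunit, POLD3, had 654 and 705 at 72 h, against 1434 and 1869 at 48 h (-1.27, adjusted p = 0.0255). These 3 subunits were lower, with no overlap between the times.

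FEN1, the flap nuclease of the lagging strand, had 988 and 758 at 72 h, against 4192 and 4412 at 48 h (log2 -2.31 ± 0.20 SE, adjusted p = 8.52e-05), a fall of 4.97-fold. Controls ranged from 3926 to 5998, and induced cells read 3889 and 5023 at 12 h, 4954 and 5438 at 24 h, 4192 and 4412 at 48 h and 988 and 758 at 72 h. The other 2 FEN1 probe sets were lower too (log2 -1.73 and -0.93). LIG1, which joins the fragments, had 106 and 369 at 72 h, against 736 and 1562 at 48 h (at least 4.79-fold lower, adjusted p = 0.0187). POLE, the catalytic subunit of the leading-strand polymerase, had 1379 and 269 at 72 h, against 2261 and 3485 at 48 h (log2 -2.21, adjusted p = 0.0396), while its other 2 probe sets (-0.93 and -0.71) did not pass. RNASEH2A, which removes ribonucleotides from DNA, had 448 and 258 at 72 h, against 1293 and 1701 at 48 h (log2 -2.12, adjusted p = 0.00246). The FEN1 and RNASEH2A arrays at 72 h were all under every control array.

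Some members that load or start the helicase passed as well, while the origin recognition complex subunits ORC1 (-0.26), ORC2 (-0.16), ORC3 (-0.03) and ORC5 (-0.16) did not. CDC6, a loader, had 16.2 and -21.8 at 72 h, against 484 and 584 at 48 h (log2 -1.97, at least 3.92-fold, adjusted p = 0.00253), though its other probe set moved by -0.17 without passing. CDC45, which activates the helicase, had 320.3 and 52.1 at 72 h, against 928 and 1243 at 48 h (at least 5.15-fold lower, adjusted p = 0.00289). GINS1, its partner, had 378 and 461 at 72 h, against 1487 and 1821 at 48 h (adjusted p = 0.000927). CDT1, the licensing factor, had 1040.3 and 722 at 72 h, against 2057 and 1781 at 48 h (log2 -1.14). In control cells it had 6179.8 and 6883 at 72 h, against 3989.8 and 3454 at 48 h. All 6 subunits of the MCM helicase (MCM2 to MCM7) fell, by log2 changes from -0.88 (MCM6) to -1.55 (MCM7), with adjusted p of at most 0.0392 (MCM4). MCM7 had 1601 and 1587 at 72 h, against 4405 and 4913 at 48 h. MCM6 had 7100.3 and 7345 at 72 h, against 12031 and 14738 at 48 h. The clamp PCNA had 2114 and 1639 at 72 h, against 4155 and 4406 at 48 h (log2 -1.20, adjusted p = 0.00237).

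Several members that supply deoxynucleotides passed. TYMS, which makes thymidylate, had 6126 and 5841 at 72 h, against 13804 and 12541 at 48 h (log2 -1.14, adjusted p = 0.000301), and its second probe set fell by 2.18 on the log2 scale. RRM1, the large subunit of ribonucleotide reductase, had 781 and 684 at 72 h, against 1955 and 2117 at 48 h (log2 -1.48, adjusted p = 0.00150), while RRM2, the small subunit, moved by -0.83 without passing. DUT, TK1 and DTYMK, other enzymes of thymidine nucleotide metabolism, changed by -0.84, -1.46 and -1.83 and passed. Members that did not pass included TOP1 (-0.00) and E2F1 (0.47, the 1 member of the list above 0).

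Mitosis and G2/M genes were the second group. Of 57 tested members, 30 were lower at 72 h and 0 were higher, 27 did not pass, and the median was log2 -1.17. Both arrays at 72 h lay under both at 48 h in 52 of 57 and above in 0. Controls had a median of -0.04, with 0 calls by limma and 2 members lower at an unadjusted p under 0.05. Without replicate 2 at 48 h the count of 30 was 17, and without either replicate at 72 h it was 20.

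AURKA, a kinase that matures the spindle poles, had 599.6 and 1119 at 72 h, against 3009.8 and 3172 at 48 h (log2 -1.92 ± 0.28 SE, adjusted p = 0.00185). Its induced arrays read 1925 and 1517 at 12 h, 2758 and 2905 at 24 h, 3009.8 and 3172 at 48 h and 599.6 and 1119 at 72 h, and the 8 controls 1229 to 1756, so the level was above every control at 48 h and under every control at 72 h. AURKB, the kinase of the chromosome passenger complex, had 1765 and 1218 at 72 h, against 4566 and 5377 at 48 h (log2 -1.76, adjusted p = 0.000301). PLK1, the polo kinase, had 4251 and 3713 at 72 h, against 10298 and 8993 at 48 h (log2 -1.28, adjusted p = 0.000301). FOXM1, the factor that drives mitotic genes, had 1471 and 1319.6 at 72 h, against 4094 and 4481 at 48 h (log2 -1.62, adjusted p = 0.00138). MYBL2, its partner in that role, had 1489.6 and 1350.5 at 72 h, against 4328 and 3442 at 48 h (log2 -1.44). KIF2C, a kinesin that trims microtubules, had 1595 and 1583 at 72 h, against 4679 and 4918 at 48 h (log2 -1.59 ± 0.14 SE, adjusted p = 0.000100), with no overlap between the times. KIF22, a chromosome-arm kinesin, had 684 and 106 at 72 h, against 2098 and 2113 at 48 h, with 1 of its arrays at 72 h at the floor (log2 -2.79, adjusted p = 0.0123). LMNB1, a lamin of the nuclear envelope, had 856 and 1339 at 72 h, against 4374 and 10243 at 48 h (log2 -2.64, adjusted p = 0.0197) against controls of 6433 to 15694.

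Some cyclin and checkpoint members passed and others did not. CCNB2, a mitotic cyclin, had 2094 and 2382 at 72 h, against 5246 and 4818 at 48 h (log2 -1.17, adjusted p = 0.00487). CCNA2, its S and G2 phase relative, had 2800.5 and 2312 at 72 h, against 6764 and 6280.0 at 48 h (log2 -1.36). CDC20, which starts anaphase, had 3651 and 3781 at 72 h, against 9686 and 7867 at 48 h (log2 -1.23, adjusted p = 0.000777). The checkpoint genes BUB1, BUB1B, MAD2L1 and TTK changed by -1.30, -1.23, -1.44 and -1.05 and passed. CCNB1 (-0.89), MKI67 (-0.60) and BIRC5 (-0.17) did not pass. TOP2A, in both lists, did not pass on the probe set used for the lists (-0.62), whereas its other 2 probe sets fell by 1.29 and 0.92 on the log2 scale and passed.

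The mitosis and replication lists were also set against controls of the same time, which share arrays with the step and are given side by side only. A difference between the lists was not tested. At 72 h, 0 of the mitosis members were higher and 27 lower than in control cells (median -0.65), whereas at 48 h 9 were higher and 0 lower (median 0.27). Replication members had 1 higher and 42 lower at 72 h (median -1.45), and 0 higher and 18 lower at 48 h (median -0.49). Among all tested genes, 16.9% were higher and 14.3% lower at 72 h (median 0.19), and 11.4% higher and 8.94% lower at 48 h (median 0.10). KIF11, HMMR, DLGAP5, NDC80 and PLK1 were among the mitosis members higher than controls at 48 h.

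**Figure D2:**
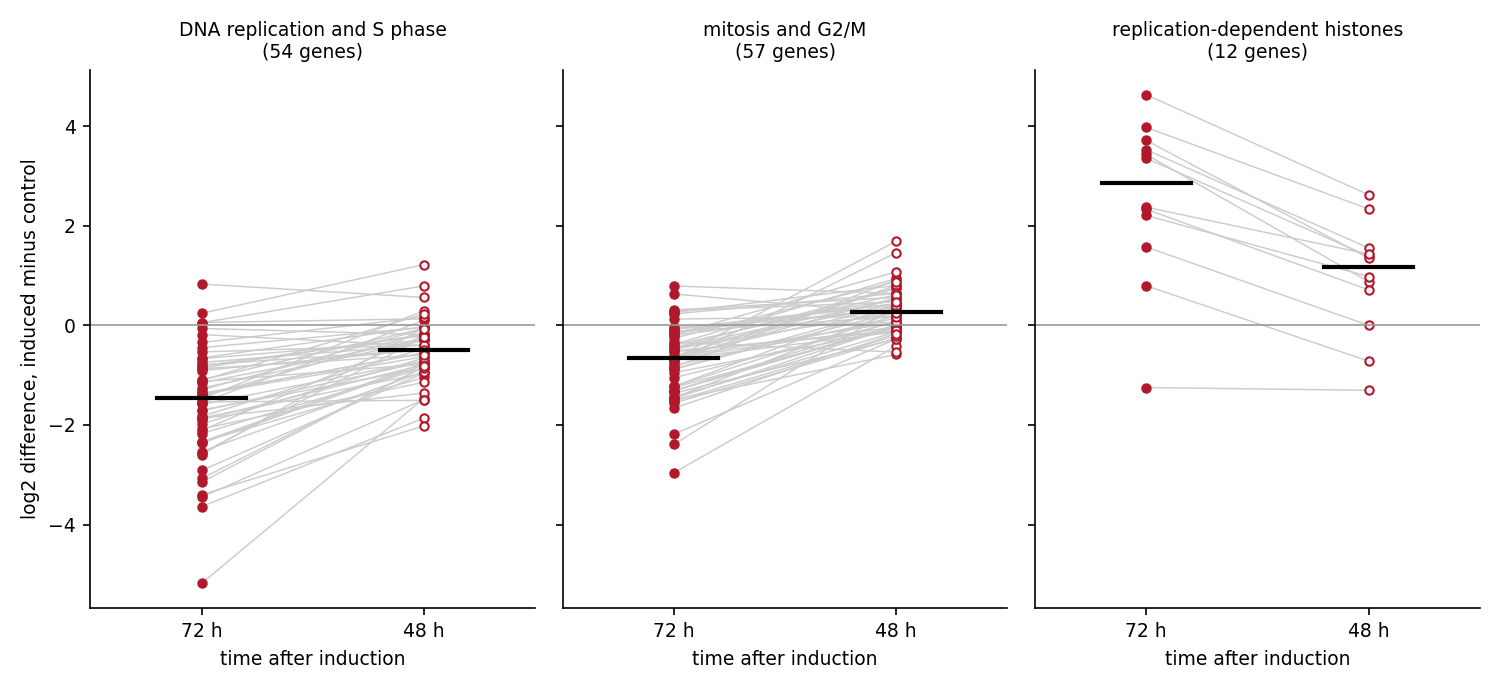
Log2 difference between induced and control cells of the same time for each tested gene of 3 lists, at 72 h (filled, left) and 48 h (open, right), with a line joining each gene and a black bar at the list's median. Replication medians were -1.45 at 72 h and -0.49 at 48 h, mitosis medians -0.65 and 0.27, and histone medians 2.86 and 1.17.

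The promoters of the 2 groups hold different letters, which is shown because members of each list moved together; it is a description of sequence and not of binding. RefSeq promoter windows (GRCh38.p14, 250 bases before to 50 after the start) were matched by symbol for 47 of the 57 mitosis and 48 of the 54 replication members. The CHR letters TTTGAA, on either strand, were found in 26 mitosis promoters (55.3%), 3 replication promoters (6.25%) and 15.4% of all 27305 promoters (10.0% of the 4599 of tested genes). The E2F letters TTTGGCGC, TTTCCCGC or GGCGGGAA, on either strand and with the last 2 overlapping where they join, were in 3 mitosis promoters (6.38%), 22 replication promoters (45.8%) and 4.61% of all (7.37% of tested genes). The CCAAT letters, on either strand, were in 74.5%, 54.2% and 35.7% (36.9% of tested genes). Among called members, 18 of 26 mitosis promoters held CHR letters (69.2%) and 15 of 25 replication promoters held E2F letters. The 4 promoters below are those of the called members with the largest falls that hold a CHR or E2F match, written 5′ to 3′ in the direction of the gene, with CHR, E2F and CCAAT matches in capitals.
LIG1 (chr19:48170295-48170594, minus strand): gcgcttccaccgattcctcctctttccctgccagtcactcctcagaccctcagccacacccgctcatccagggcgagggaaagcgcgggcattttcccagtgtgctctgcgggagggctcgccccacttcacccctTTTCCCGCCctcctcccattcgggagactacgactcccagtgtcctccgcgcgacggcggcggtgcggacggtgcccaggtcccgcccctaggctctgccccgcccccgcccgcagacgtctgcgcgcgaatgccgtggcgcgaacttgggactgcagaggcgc
POLE (chr12:132687293-132687592, minus strand): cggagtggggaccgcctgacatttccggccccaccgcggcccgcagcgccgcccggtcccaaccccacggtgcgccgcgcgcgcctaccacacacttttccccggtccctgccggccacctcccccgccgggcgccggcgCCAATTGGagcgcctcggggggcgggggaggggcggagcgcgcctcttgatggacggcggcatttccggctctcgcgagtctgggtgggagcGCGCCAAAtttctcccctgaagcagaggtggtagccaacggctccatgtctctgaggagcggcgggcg
KIFC1 (chr6:33391573-33391872, plus strand): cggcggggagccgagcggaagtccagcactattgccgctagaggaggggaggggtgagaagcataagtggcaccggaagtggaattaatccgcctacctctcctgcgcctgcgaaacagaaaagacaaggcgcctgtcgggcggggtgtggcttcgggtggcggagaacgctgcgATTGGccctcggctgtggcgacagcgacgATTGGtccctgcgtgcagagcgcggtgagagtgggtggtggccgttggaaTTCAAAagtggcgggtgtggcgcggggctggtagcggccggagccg
GINS1 (chr20:25407423-25407722, plus strand): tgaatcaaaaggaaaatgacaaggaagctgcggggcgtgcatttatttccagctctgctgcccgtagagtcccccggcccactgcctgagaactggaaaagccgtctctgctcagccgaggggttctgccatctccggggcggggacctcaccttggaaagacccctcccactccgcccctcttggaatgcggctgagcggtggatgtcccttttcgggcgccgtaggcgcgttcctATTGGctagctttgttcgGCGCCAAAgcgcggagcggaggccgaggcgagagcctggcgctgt
LIG1, POLE and GINS1 of this set hold E2F letters and belong to the replication list. KIFC1, a mitotic kinesin with 597 and 1211 at 72 h, against 2682 and 4215 at 48 h (log2 -1.98, adjusted p = 0.0488), holds a CHR match near its start together with 2 CCAAT matches upstream.

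Replication-dependent histone genes had changes above 0 while the replication machinery was lower. They encode the histones that package new DNA, and their usual mRNAs carry no poly(A) tail, whereas the label reaction here began from an oligo-dT primer. Of 12 tested members, 2 passed and both rose, with 0 lower (0.589% higher and 2.85% lower among all genes). All 12 had a log2 change above 0, and the median was 1.35 (controls -0.43). In 11 of 12 both arrays at 72 h lay above both at 48 h, and in 0 under (20.9% and 22.2% of all genes). In control cells 0 members were higher and 2 lower at an unadjusted p under 0.05 (3.09% and 3.28% of all genes). H2BC12 had 9622 and 7898 at 72 h, against 3461 and 2707 at 48 h (log2 1.51, adjusted p = 0.0288), against controls of 523 to 1116. H3C4 had 319 and 511 at 72 h, against -178 and 70.2 at 48 h (at least 2.98-fold, adjusted p = 0.0211). Among those that did not pass, H2BC14 had 4465 and 3921 at 72 h, against 1830.2 and 1426 at 48 h (adjusted p = 0.136) and H2BC21 3628 and 3107 at 72 h, against 1122 and 1421 at 48 h (adjusted p = 0.186), each without overlap of arrays. These genes form a family of near-identical copies, so the probe sets may read more than 1 of them. Against controls of the same time the list had 10 members higher at 72 h and 6 at 48 h (medians 2.86 and 1.17), where 16.9% and 11.4% of all genes were higher.

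**Figure D3:**
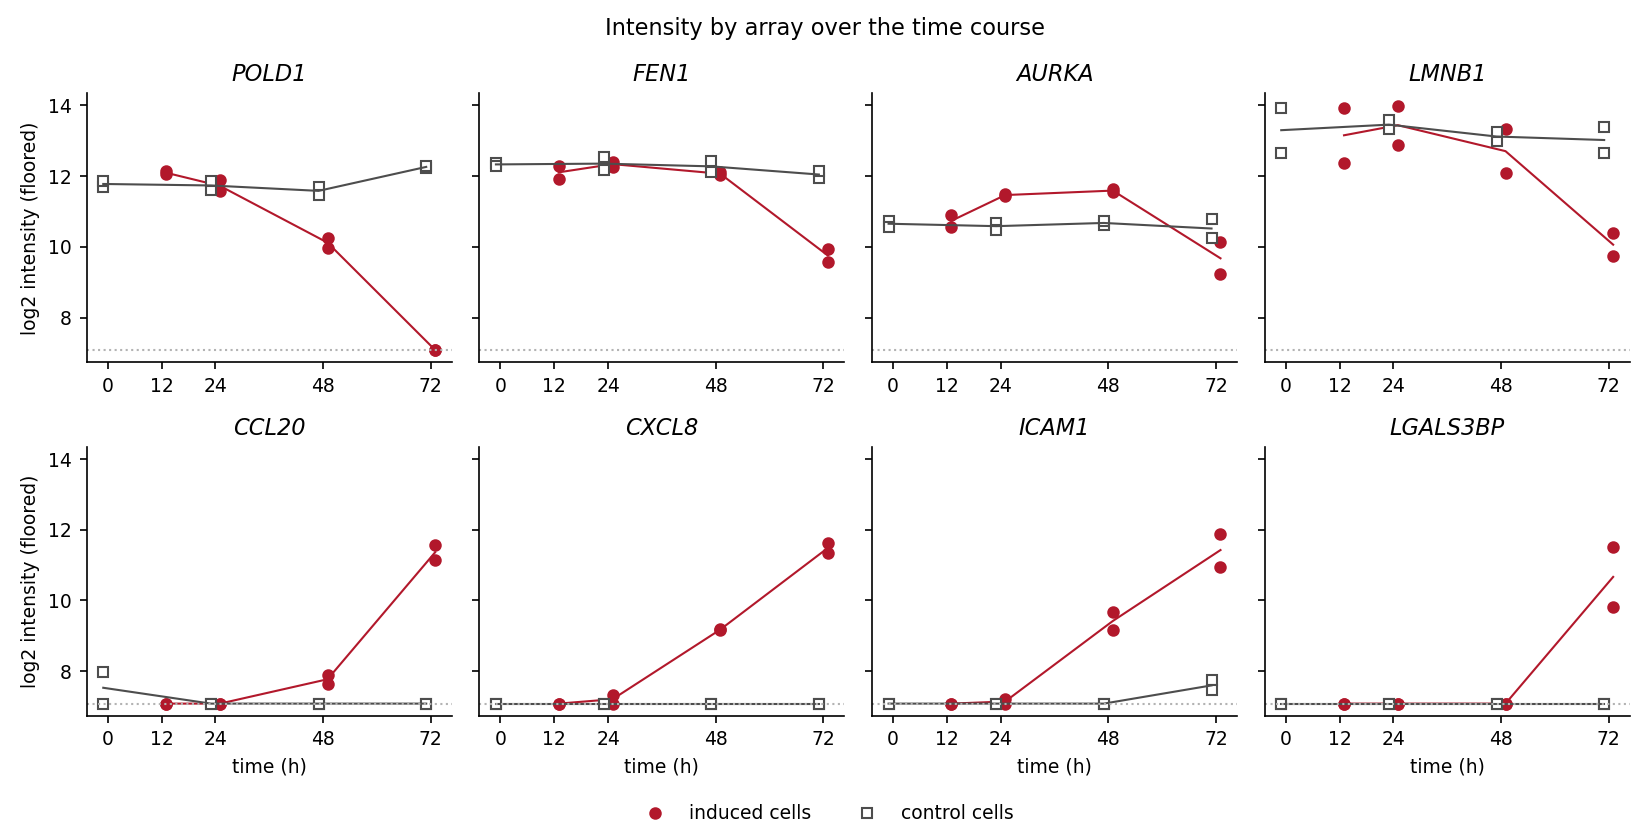
Log2 intensity by array (floored, dotted line) of 8 genes against time after induction, with red filled circles for induced cells, grey open squares for control cells and lines through the group means. POLD1, FEN1, AURKA and LMNB1 are lower at 72 h than at 48 h in induced cells, and CCL20, CXCL8, ICAM1 and LGALS3BP are higher; the control arrays shift less than the induced ones.

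DNA repair genes had 5 of 45 members lower and 0 higher: BARD1 (-1.32), BLM (-1.34), FANCI (-1.08), DDB2 (-1.19) and PRKDC (-0.79). In the CDK inhibitor and G1 cyclin list 2 of 22 fell, and the median was 0.02. CCNE2, an S phase cyclin, had 294 and 231 at 72 h, against 834 and 1334 at 48 h (log2 -2.02, with -1.04 in control cells). CDK2, its kinase, had 2701 and 4365 at 72 h, against 5869 and 6567 at 48 h (log2 -0.85, adjusted p = 0.0362), though the other CDK2 probe set had a fitted change of 0. The inhibitors CDKN1A (0.94), CDKN1B (0.72) and CDKN2A (0.91) and the kinase CDK4 (-0.00) did not pass. NSD2, a histone methyltransferase, HMGA1 and HMGB1 were the 3 of 57 chromatin members that fell (-1.55, -0.83 and -0.52), and that list had a median of 0.02. Beside the counts of this paragraph, 2.85% of all genes were lower.

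The largest named rise was that of a chemokine, and the chemokines called are given with it. CCL20, a chemokine for CCR6-bearing cells, had 3061 and 2273 at 72 h, against 201 and 238 at 48 h (log2 3.59 ± 0.38 SE, adjusted p = 0.000301), a rise of 12.1-fold. Control arrays ranged -12.4 to 252, and the induced arrays read 34.9 and 65.5 at 12 h, 9.82 and 8.48 at 24 h, 201 and 238 at 48 h and 3061 and 2273 at 72 h, so both arrays at 72 h stood above all others. CXCL8, the neutrophil chemokine, had 3159 and 2606 at 72 h, against 577 and 580.5 at 48 h (log2 2.31 ± 0.33 SE, adjusted p = 0.00185), a rise of 4.96-fold, and controls of -869 to -98.1; its second probe set moved by 0.66 without passing. CXCL10, an interferon-induced chemokine, had 4439 and 1390.2 at 72 h, against 633 and 418 at 48 h (log2 2.27, adjusted p = 0.0191). CCL5, another chemokine, had 23804 and 25219 at 72 h, against 11117 and 8649 at 48 h (log2 1.32, adjusted p = 0.00232) against controls of 2209 to 4101. ICAM1, the adhesion ligand of leukocyte integrins, had 3808 and 1991 at 72 h, against 813 and 578 at 48 h (log2 2.01, adjusted p = 0.0123).

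As a list, NF-kB and inflammatory genes had 3 of 36 members higher and 0 lower (0.589% and 2.85% of all genes). The 3 were CCL20, ICAM1 and CCL5, with CXCL8 represented by its brighter probe set, which did not pass. The list's median was 0.12, with 8 members higher and 1 lower at an unadjusted p under 0.05 (5.01% and 8.85% of all genes). Both arrays at 72 h lay above both at 48 h in 12 members and under in 6. The inhibitor TNFAIP3 (1.37) and RELB (1.12) did not pass, and neither did TNF (0.07) or NFKBIA (-0.03). Interferon response genes had 2 of 40 higher, CXCL10 and LGALS3BP, a secreted galectin-binding protein, with 0 lower. The median was 0.40 (controls 0.03), and 8 members were higher and 2 lower at an unadjusted p under 0.05. Both arrays at 72 h lay above both at 48 h in 19 members and under in 2 (20.9% and 22.2% of all genes). With a replicate block in the fit, 3 were called higher and 1 lower, against 2 and 0 without it. The count of 2 was 1 without replicate 2 at 48 h or replicate 1 at 72 h. IFI6 (1.81), IFI44L (1.61), OASL (1.23) and ISG15 (1.02) did not pass. LGALS3BP had 2949 and 897 at 72 h, against -1517 and -1618 at 48 h, at least 12.0-fold (adjusted p = 0.000889), and its controls ran -3316 to -1529, so the readings of this probe set before 72 h lay far below 0. Immediate early and AP-1 genes had 0 of 25 called by limma, with 4 higher and 0 lower at an unadjusted p under 0.05 and a median of 0.36.

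**Figure D4:**
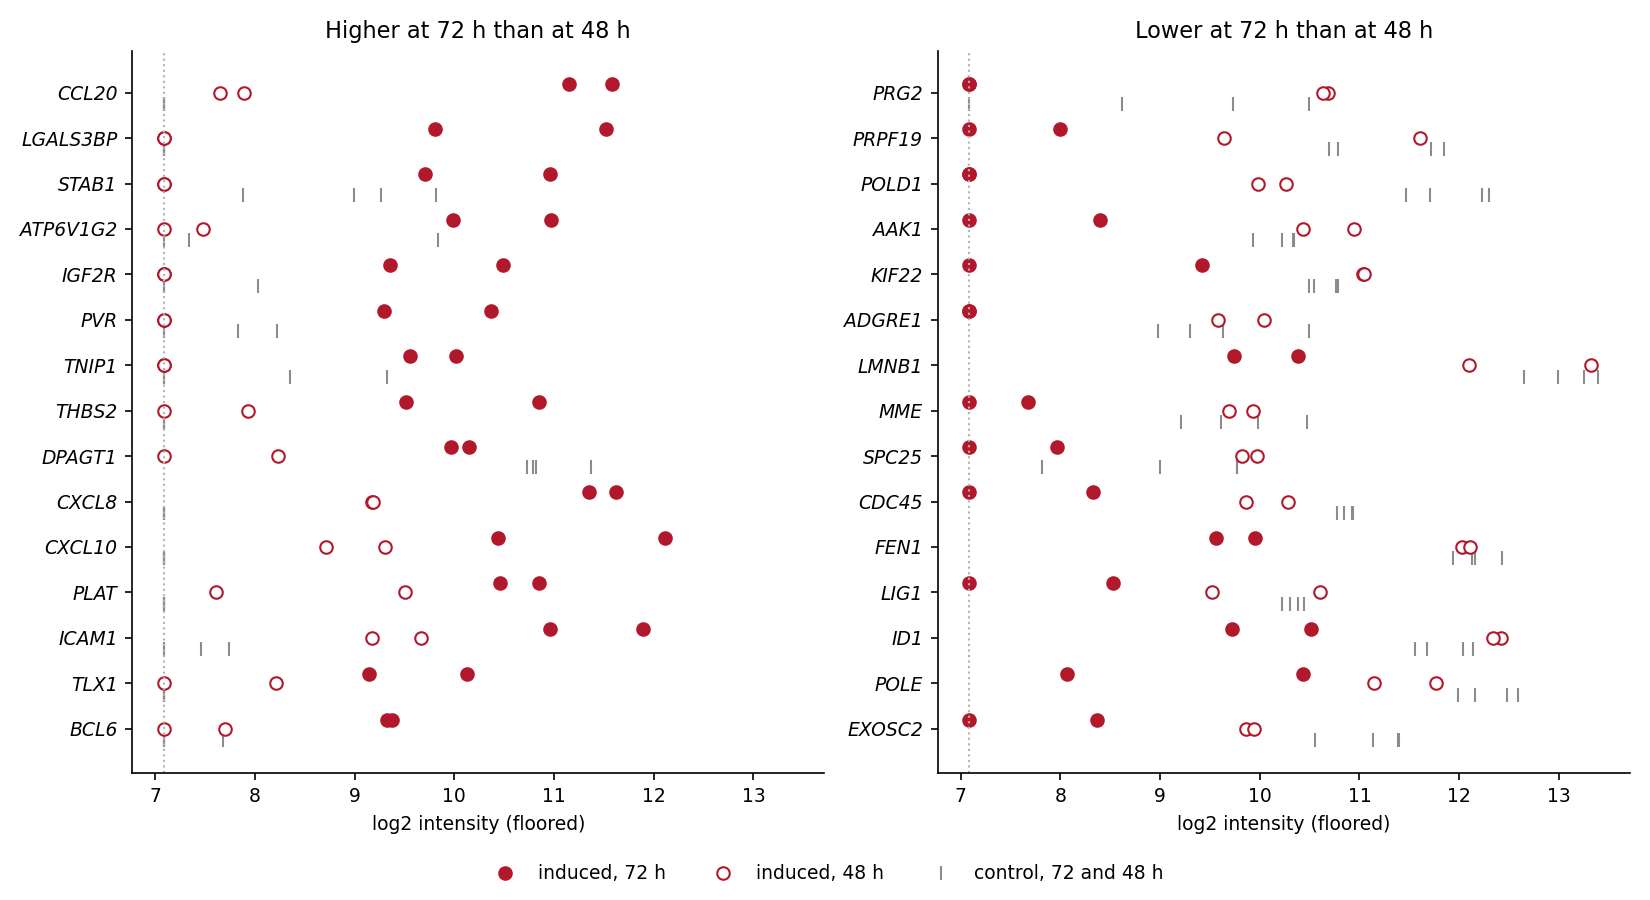
Log2 intensity (floored, dotted line) of the 15 largest rises (left) and the 15 largest falls (right) by array: filled circles are induced cells at 72 h, open circles induced cells at 48 h and grey ticks the 4 control arrays of both times. In every row the filled and open circles do not overlap, which the rule for naming required.

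Other rises came from single genes of different roles. IGF2R, the receptor that carries lysosomal enzymes and binds IGF2, had 1433 and 655 at 72 h, against 52.4 and -173 at 48 h (at least 7.14-fold, adjusted p = 0.00237). PLAT, tissue plasminogen activator, had 1848 and 1409 at 72 h, against 729 and 195 at 48 h (4.29-fold, adjusted p = 0.0360). THBS2, a matrix thrombospondin, had 1849 and 729 at 72 h, against 61.2 and 244 at 48 h (at least 6.38-fold, adjusted p = 0.00436), with a second probe set at log2 1.98 that passed. TNIP1, an inhibitor of NF-kB signalling, had 754 and 1037 at 72 h, against -346 and -418 at 48 h (at least 6.52-fold, adjusted p = 0.00357) on a probe set whose control values were -485 to 642 and whose induced arrays at 12 h read 849 and 888. STAB1, a scavenger receptor, had 835 and 1989.7 at 72 h, against -87.6 and 122 at 48 h (at least 9.50-fold), but its level at 24 h in induced cells was 1201 and 1596, so the arrays at 48 h are the low ones. DPAGT1, the first enzyme of N-glycan assembly, had 1001 and 1131 at 72 h, against 116 and 301 at 48 h, with controls of 1183 to 2657: again 48 h was the low time. BCL6, a transcriptional repressor, had 662 and 641 at 72 h, against 104 and 208 at 48 h (at least 3.87-fold, adjusted p = 0.0268). PVR, the poliovirus receptor, had 1317 and 626 at 72 h, against -68.9 and -170.1 at 48 h (at least 6.70-fold), though its second probe set moved by 0.07. The homeobox gene TLX1 had 567 and 1118 at 72 h, against -203 and 296 at 48 h (at least 3.98-fold). ATP6V1G2, a subunit of the vacuolar proton pump, had 1016 and 2001 at 72 h, against 178 and 132 at 48 h (at least 9.17-fold).

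Lysosomal genes had 1 of 44 members called, CTSA, a protective lysosomal carboxypeptidase, which had 4136 and 4682 at 72 h, against 2839 and 2040.2 at 48 h (log2 0.87, adjusted p = 0.0405). The call was lost without either replicate at 72 h or replicate 2 at 48 h. The list's median was 0.21 (controls 0.01), with 11 higher and 2 lower at an unadjusted p under 0.05 (5.01% and 8.85% of all genes), and both arrays at 72 h above both at 48 h in 21 members and under in 4. CD68, a macrophage lysosomal glycoprotein, had 1372 and 537 at 72 h, against 15.3 and -136 at 48 h without passing. Cholesterol synthesis had 2 of 19 higher (0.589% of all genes), DHCR7 (9088 and 10061 at 72 h, against 6071 and 6702 at 48 h) and SQLE (2431 and 2932 at 72 h, against 1602 and 1612 at 48 h). Its median was -0.01, with 3 members higher and 3 lower at an unadjusted p under 0.05. MHC class I had 1 of 12 higher, the loading factor TAPBP (17372 and 19323 at 72 h, against 11168 and 11743 at 48 h). In that list both arrays at 72 h lay above both at 48 h in 4 members and under in 4.

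Falls outside the cell cycle included myeloid genes. PRG2, the eosinophil granule protein, had -106 and -217 at 72 h, against 1641 and 1590.1 at 48 h, both arrays at 72 h below 0 (at least 11.9-fold, adjusted p = 0.0499), with controls spread over -206 to 2025. Over the same interval PRG2 also moved down in control cells, by log2 -2.27, against -3.57 in induced cells. ADGRE1, a macrophage adhesion receptor, had -63.5 and -289.7 at 72 h, against 765 and 1055 at 48 h (at least 6.63-fold, adjusted p = 0.0103). MME, the peptidase neprilysin, had 204 and -121 at 72 h, against 829 and 974 at 48 h (at least 5.40-fold, adjusted p = 0.0436). The primary granule list had 4 of 17 lower and 0 higher (2.85% and 0.589% of all genes): PRG2, PRTN3, CTSG and AZU1. At an unadjusted p under 0.05, 7 members were lower and 2 higher (8.85% and 5.01% of all genes). Both arrays at 72 h lay under both at 48 h in 8 members and above in 3 (22.2% and 20.9% of all genes). The serine protease PRTN3 had 334 and 243 at 72 h, against 946 and 1138 at 48 h (log2 -1.87). Cathepsin G (CTSG) had 614 and 565 at 72 h, against 1037 and 1228 at 48 h (log2 -0.94), and azurocidin (AZU1) had 3459.6 and 4676 at 72 h, against 6427 and 7353 at 48 h (log2 -0.77). The last 3 were already below controls at 48 h (log2 -1.64, -2.52 and -0.78). MPO (0.89) and ELANE (-0.02) did not pass, and the second CTSG probe set moved by -0.28. ID1, an inhibitor of basic helix-loop-helix factors, had 1463 and 845 at 72 h, against 5478 and 5175 at 48 h (log2 -2.26, adjusted p = 0.000599), and its second probe set fell by 1.72 on the log2 scale. CBFB, the partner subunit of RUNX1, had 4502 and 3872 at 72 h, against 7338 and 7183 at 48 h. LYL1, a blood helix-loop-helix factor, had 1257 and 934 at 72 h, against 1678 and 1890.5 at 48 h. CBFB and LYL1 fell by 0.80 and 0.72 on the log2 scale.

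S100A11, a calcium-binding protein, had 608 and 462 at 72 h, against 1406 and 2011 at 48 h (log2 -1.67, adjusted p = 0.000927). AIF1, a macrophage calcium-binding protein, had 1419 and 984 at 72 h, against 2382 and 2720.1 at 48 h. The fatty acid binding protein FABP5 had 688 and 428 at 72 h, against 1297 and 1550.5 at 48 h (log2 -1.39, with -0.67 in control cells). These were the 3 of 28 monocyte and macrophage members that fell (2.85% of all genes), and the list's median was -0.01. ITGB2, the shared chain of the leukocyte integrins, had 1920.3 and 1281 at 72 h, against 3281 and 3731 at 48 h (log2 -1.16, adjusted p = 0.00733). CORO1A, a leukocyte actin regulator, had 1927 and 1535 at 72 h, against 5647 and 7763 at 48 h (log2 -1.94 ± 0.22 SE, adjusted p = 0.000348). TMC6, a membrane channel-like protein, had 716 and 517 at 72 h, against 2337 and 2654 at 48 h (log2 -2.03 ± 0.19 SE, adjusted p = 0.000136). PRPF19, a splicing-complex ubiquitin ligase, had 255 and 129.9 at 72 h, against 801 and 3115 at 48 h (at least 8.49-fold lower, adjusted p = 0.0268). EXOSC2, an exosome subunit (-525 and 331 at 72 h, against 934 and 982 at 48 h), and AAK1, an adaptor-associated kinase (-120.0 and 336 at 72 h, against 1384 and 1969.7 at 48 h), each had a second probe set that moved by -0.30 and -0.12 without passing. SPC25, a kinetochore protein, had 251 and 19.3 at 72 h, against 907 and 1005 at 48 h, and its other probe sets moved by -0.53 and -0.05.

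Amino acid and unfolded protein response genes had 5 of 40 lower and 0 higher (SLC7A5 -1.35, AARS1 -1.18, CARS1 -1.15, MTHFD2 -0.95 and PHGDH -0.88), with a median of -0.20; the count was 2 without replicate 2 at 48 h. SLC7A5, the large neutral amino acid transporter, had 2293 and 1549 at 72 h, against 4008 and 5746 at 48 h, with controls of 17898 to 24092. MYC and ribosome biogenesis genes had 2 of 30 lower, PA2G4 (866 and 743 at 72 h, against 1810.3 and 1949.6 at 48 h) and FBL (4817 and 4230.1 at 72 h, against 9657 and 7457 at 48 h), with a median of -0.36 (controls -0.28). Glycolysis had 3 of 32 lower, PFKP (-0.89), PKM (-0.86) and GPI (-0.58), with a median of -0.14. Beside these counts of lower members, 2.85% of all genes were lower. Oxidative phosphorylation (52 tested, median -0.17), cytosolic ribosomal proteins (46, -0.07), proteasome (36, -0.07) and apoptosis genes (32, 0.06) had 0 called by limma. At an unadjusted p under 0.05 they had 4 lower, 0, 3 lower and 1 higher, in that order, shares at or under those of all genes. In oxidative phosphorylation 44 changes lay below 0. Both its arrays at 72 h lay under both at 48 h in 23 of 52 members and above in 0 (22.2% and 20.9% of all genes). These counts were 8 and 0 for ribosomal proteins, 11 and 4 for the proteasome and 3 and 4 for apoptosis genes.

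**Figure D5:**
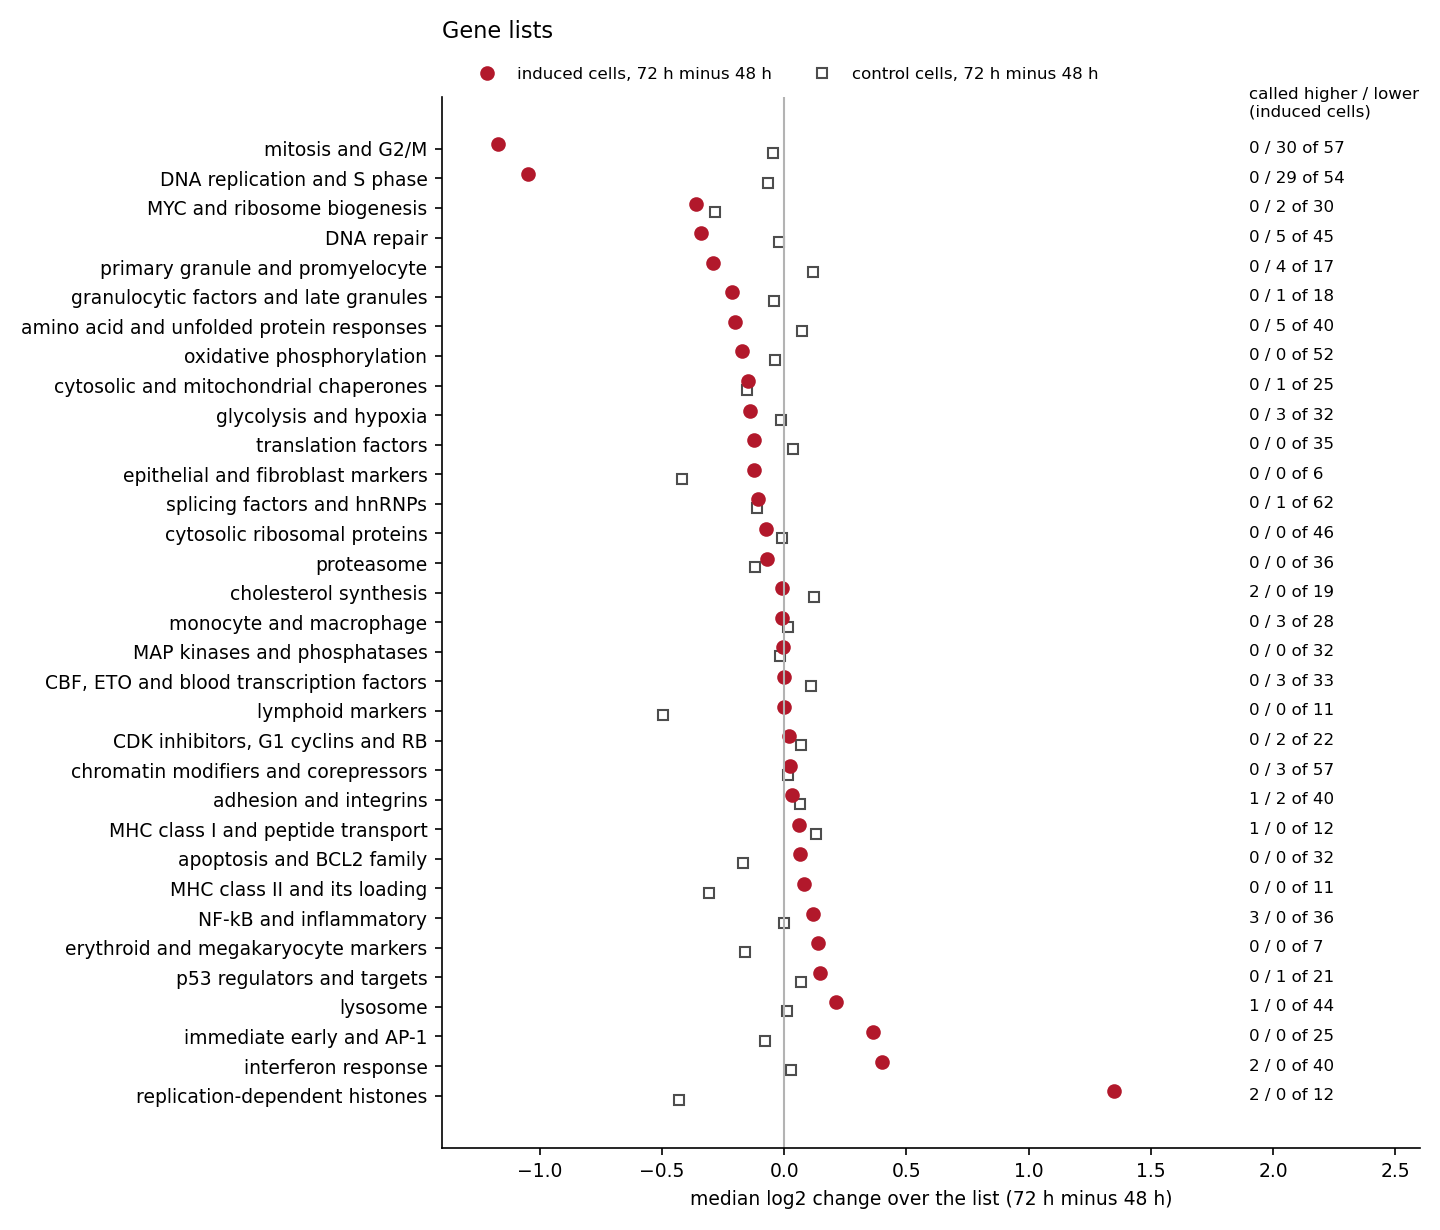
Median log2 change, 72 h minus 48 h, of each gene list in induced cells (red circles) and control cells (open squares), with the numbers called higher and lower in induced cells at the right. The mitosis (-1.17) and replication (-1.05) lists lie lowest and the histones (1.35) highest.

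In control cells the same interval raised DDIT3, the stress factor CHOP, and lowered CYP2A13. The DDIT3 probe set read 1627 and 1078 at 72 h, against -108 and -439 at 48 h in control cells (log2 3.29, adjusted p = 0.00579), and all 4 induced arrays lay under the floor. A second DDIT3 probe set changed by 2.53 and passed. CYP2A13, a cytochrome P450, read 260.0 and -135 at 72 h, against 1427 and 980.5 at 48 h in control cells (log2 -2.66, adjusted p = 0.0105). Its other 2 probe sets, 1 of which stands for the gene in the counts of genes, did not pass (log2 0.04 and -1.05). The call of DDIT3 ended without control replicate 1 at 48 h (adjusted p = 0.132) or at 72 h (0.0554), and that of CYP2A13 without replicate 1 at 48 h (0.277) or replicate 2 at 72 h (0.088). DUSP7, DUSP9, PRELP and PCYT1B, the nearest others, did not pass (adjusted p 0.0686 to 0.423).

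The step in induced cells was then tested against the step in controls directly. Of 7824 probe sets, 38 differed: 7 in the higher and 31 in the lower direction, and among genes 3 (0.0535%) and 25 (0.446%). The split turned to 20 higher and 13 lower when the variance prior had no trend. The count was 4 to 76 with 1 of the 8 arrays left out, so it rests on single arrays. It was 4 without either control replicate at 48 h, 5 without control replicate 1 at 72 h, 10 without control replicate 2 at 72 h or induced replicate 2 at 48 h, 17 without induced replicate 1 at 48 h and 76 without induced replicate 1 at 72 h. POLD1 differed by most in the lower direction (log2 -3.72, adjusted p = 2.49e-05) and kept its call in all 8 of these. FEN1 (log2 -2.08, adjusted p = 0.00788), CDT1 (log2 -1.96, adjusted p = 0.0133) and RNASEH2A (log2 -2.56, adjusted p = 0.0310) were also lower, together with AURKB, FOXM1, KIF2C, CCNB2 and CDC20 among mitosis genes. CCL20 (log2 3.59, adjusted p = 0.0133), LGALS3BP (log2 3.58, adjusted p = 0.0310) and CTSA (log2 1.64, adjusted p = 0.0310) differed in the higher direction. CORO1A (log2 -1.998, adjusted p = 0.0133), TMC6 (log2 -1.94, adjusted p = 0.00972) and APOBEC3B, a cytidine deaminase (log2 -2.03, adjusted p = 0.0466), also differed. The replication and mitosis lists had 7 and 8 members lower and 0 higher in this test. With 1 array left out these were 1 to 11 and 1 to 8, and each was 1 with the fit limited to the 8 arrays of 48 and 72 h.

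Single arrays also decide many of the calls above. With 1 of the 8 arrays at 48 and 72 h left out in turn, 10 of the 30 named rises and falls kept their call each time: CCL20, LGALS3BP, IGF2R, TNIP1, THBS2, CXCL8, POLD1, CDC45, FEN1 and ID1. The other 20 lost it at least once. ICAM1 lost it without replicate 1 at 72 h (adjusted p = 0.0698) and replicate 2 at 48 h (0.118), CXCL10 without the same arrays (0.0867 and 0.166), and LIG1 likewise (0.145 and 0.206). DPAGT1 and TLX1 lost it without replicate 1 at 48 h (0.0837 and 0.136) and replicate 2 at 72 h (0.088 and 0.149), and SPC25 without replicate 2 at 48 h (0.0929) and at 72 h (0.109). STAB1, PVR, PRPF19, KIF22, ADGRE1, LMNB1 and EXOSC2 lost it with 3 of the 4 induced arrays, at adjusted p of up to 0.207, 0.127, 0.299, 0.0943, 0.111, 0.219 and 0.152. ATP6V1G2 and BCL6 lost it with any induced array left out, at up to 0.208 and 0.145, and MME, PLAT, POLE, PRG2 and AAK1 with 6 to 8 of the 8, at up to 0.251, 0.277, 0.293, 0.228 and 0.293.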

How the data were processed

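Total RNA was hybridised to Affymetrix U95Av2 arrays (16 arrays, 2 for each of 8 groups), with a biotin label made from an oligo-dT primer, per the labels' protocols. The authors deposited linear intensity values for 12626 probe sets, scaled to 1 mean for every array, of which 25.8% are below 0; the summary and background steps are not given in the sources used here. The number of arrays limits the precision, and depth has no meaning here. Probe sets were named from the platform annotation (10961 with 1 symbol, 546 with several, 1119 with none), and 10949 symbols were matched to RefSeq.

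Values at or under the 40th percentile (136) were floored and taken to log2. Probe sets above 293 on at least 2 of 16 arrays were kept, leaving 7824 of 12626, with 67 control probe sets left out. The limma 3.58.1 fit (R 4.3.3) had 1 mean per group, a trended prior, 8 residual degrees of freedom and Benjamini-Hochberg adjustment; calls had an adjusted p under 0.05. A gene list used 1 probe set per gene, that of highest mean level, giving 5606 genes. The script was tested on simulated data. Named were the 15 largest called rises and falls of induced cells without overlap of arrays, up to 6 each of controls, up to 8 each of the difference, and up to 4 called members of each list. Other members named were chosen after their values were seen. The members and lists were chosen with earlier results of these data known. Alternatives were other floors, filters, scalings and sets of arrays, and each array left out.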

Additional observations from a re-analysis of the deposited data

Results flagged for a closer look

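For 12 genes the change from 48 to 72 h differed between induced and control cells in limma's test of the difference itself. In the higher direction the difference on the log2 scale (induced step minus control step) was 3.59 for CCL20, 3.58 for LGALS3BP, 2.75 for CYP2A13 and 1.64 for CTSA. In the lower direction it was -3.72 for POLD1, -3.29 for DDIT3, -2.56 for RNASEH2A, -2.08 for FEN1, -2.03 for APOBEC3B, -1.998 for CORO1A, -1.96 for CDT1 and -1.94 for TMC6. Adjusted p ran from 2.49e-05 (POLD1) to 0.0466 (APOBEC3B). For CYP2A13 and DDIT3 the fitted change was in the control cells (log2 -2.66 and 3.29), with 0.10 and 0 in induced cells. All induced DDIT3 arrays at both times lay under the floor, so that 0 is not a measured step. The other CYP2A13 probe sets did not pass in control cells. For CCL20 and LGALS3BP the control step was likewise 0 after the floor. For CTSA and CDT1 the cells moved in opposite directions (0.87 in induced and -0.76 in control cells for CTSA, -1.14 and 0.81 for CDT1). Of these 12, POLD1 was the one that kept its call with any of the 8 arrays left out.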

How the results depend on the processing

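Calls in induced cells numbered 254 and stayed within 1.5 times of that under 10 other settings (189 to 372), but were 165 when the fit was limited to the 8 arrays of 48 and 72 h and 0 with the 4 arrays of the step (975 at an unadjusted p under 0.05, smallest adjusted p 0.2), where limma has fewer arrays to estimate the spread. Leaving out 1 array gave 104 to 231. The share of rises among calls was 20.9%, and from 13.1% with the stricter filter and 13.9% with the floor at the 30th percentile to 33.2% with no filter and 42.5% with the floor at the 50th percentile. Falls numbered 0 to 30 in the replication list and 0 to 33 in the mitosis list over all settings, the 0 from the 4 arrays alone. The 3 calls of control cells became 6 with the floor at the 50th percentile, 10 with no filter, 7 without the trend, 1 with a pseudocount or the stricter filter, and 0 with 8 arrays (619 unadjusted) or 4 (708 unadjusted); leaving out 1 array gave 0 to 5. The 38 differences of the steps became 120 with the floor at the 50th percentile, 87 with no filter, 89 with quantile normalization and 4 with 8 arrays, and 4 to 76 with 1 array left out; 4 arrays cannot give this difference. Rises made up 18.4% of these 38, and 7.69% with a pseudocount, 41.7% with the floor at the 50th percentile, 49.4% with no filter and 60.6% without the trend. Of the 30 genes named for induced cells, the 6 for controls and the 12 for the difference, none changed direction in a setting that tested it. Many calls were lost, however. Of the 30 for induced cells, the floor at the 30th percentile ended 12, no filter 13 and the 8-array fit 15. In the same order, 5, 2 and 11 of the 12 for the difference ended. The difference for CCL20 had a limma adjusted p of up to 0.373 over the settings. Called NF-kB rises numbered 1 with the floor at the 30th percentile and 6 at the 50th, and interferon rises 1 and 5. The stricter filter left out some genes, CCL20 and LGALS3BP among them, and other genes named in the text were not run under the alternatives singly. Replicate numbers are shared across groups, but the labels tie them to no culture or batch: the deviations of same-numbered arrays correlated at 0.21 (induced) and 0.09 (control) across the times, and a replicate block gave 266, 3 and 33 calls. The values of intensities below the floor have no order, so a change that starts or ends there has a bound only.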

Other observations

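Single genes called lower at 72 h than at 48 h in induced cells, chosen after their values were seen and standing for no group, included PRPS2 (log2 -1.22), MTHFD1 (-1.22), IMPDH2 (-1.15) and ATIC (-0.89). The variant histone genes H2AX (-1.27) and H2AZ1 (-0.65), the histone chaperone NASP (-1.19) and the chromatin factor SSRP1 (-0.97) were further ones.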
